A study of Mus musculus with 4 samples.

Results

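The regions described here are stretches of the mouse genome where RNA polymerase II (Pol II) was called in liver and in heart but in neither kidney nor lung. They were selected on the call itself: called regions of the 4 organ lists were linked wherever they shared at least 1 bp, and a linked region was kept when it held liver and heart regions, none of kidney or lung, and no joined region of 10000 bp or longer. On chromosomes 1 to 19 and X, 1949 of 152542 linked regions met this rule, or 1.28% (exact Clopper-Pearson 95% interval 1.22 to 1.34%). They drew on 2003 liver regions, 3.23% of the liver list, and on 2058 heart regions, 2.51% of the heart list. Because presence in liver and heart and absence from kidney and lung chose the members, these features are a description and carry no test.

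Pol II was precipitated from crosslinked, flash-frozen liver, heart, kidney and lung of C57BL/6 mice with the antibody 4H8, raised to the C-terminal repeat domain of Pol II, and the recovered DNA was sequenced. The organs shared strain, antibody and a shearing run on PIXUL, a sonicator for microplates, and no treatment is named in the labels. They came from 2 mice. With 1 deposited list for each organ (n = 1), there is no spread between replicates and no test between organs. The sources used here do not say whether a list pools both mice, or give their age and sex. Whole organs mix cell types, and fewer cells of a type cannot be told apart from less Pol II per cell.

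Pol II pauses shortly after a gene's start, elongates through the body, and slows past the end. A called region inside a gene can therefore mark polymerase on that template, though a call alone does not show it. Regions between genes can be enhancers, unannotated transcripts or read-through. Liver and heart both burn fatty acids and store glycogen, liver chiefly in hepatocytes and heart chiefly in cardiomyocytes.

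Marker genes went with the organ labels. At least 50% of the gene span lay inside called regions for 29 liver and 1 heart of 30 hepatocyte genes, and for 4 liver and 25 heart of 30 cardiomyocyte genes. Over all 21627 protein-coding genes that share was 22.2% in liver, 16.3% in heart, 21.4% in kidney and 15.3% in lung. The lists rested on 20058183 tags in liver, 9880184 in heart, 16589890.5 in kidney and 13296938 in lung. Absence of a call at a place does not show that polymerase was absent there.

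Few members lay over a start that had a promoter window. The sequences around 5 such starts are shown because there the liver and the heart region of a member both reached into the window. Each window runs from 250 bases before to 50 bases after a start in the RefSeq table of GRCm38.p6, the assembly behind mm10, and is printed 5′ to 3′ on the gene's strand. Capitals mark matches, on either strand, to the motifs listed after the sequences. Nxpe2 and Abca9 came from the ranking of promoter members by their lower tag count, and Phka2, Capn3 and Rxrg were added after their values were seen. A tag count is the deposited number of sequenced tags in a region, scaled by the authors to 10000000 tags per list. The starts shown for Nxpe2 and Rxrg lie inside the annotated gene span.

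Nxpe2 (chr9:48340849-48341148, minus strand): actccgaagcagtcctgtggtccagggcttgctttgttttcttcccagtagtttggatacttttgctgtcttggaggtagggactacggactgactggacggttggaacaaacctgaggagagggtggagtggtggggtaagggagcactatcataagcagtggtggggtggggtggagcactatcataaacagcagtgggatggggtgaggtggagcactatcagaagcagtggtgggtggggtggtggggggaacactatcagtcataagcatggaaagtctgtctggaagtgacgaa
Abca9 (chr11:110168104-110168403, minus strand): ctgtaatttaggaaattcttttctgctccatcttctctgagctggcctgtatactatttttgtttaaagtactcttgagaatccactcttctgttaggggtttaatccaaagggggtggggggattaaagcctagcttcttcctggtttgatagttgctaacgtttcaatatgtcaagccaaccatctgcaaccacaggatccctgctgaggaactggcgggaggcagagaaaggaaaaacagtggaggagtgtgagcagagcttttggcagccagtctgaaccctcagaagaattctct
Phka2 (chrX:160501912-160502211, plus strand): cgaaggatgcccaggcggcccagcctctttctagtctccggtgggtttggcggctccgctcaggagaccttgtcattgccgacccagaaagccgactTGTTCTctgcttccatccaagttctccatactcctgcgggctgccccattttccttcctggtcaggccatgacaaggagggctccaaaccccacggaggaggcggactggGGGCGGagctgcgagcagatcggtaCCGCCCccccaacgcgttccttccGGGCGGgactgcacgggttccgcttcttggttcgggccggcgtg
Capn3 (chr2:120463343-120463642, plus strand): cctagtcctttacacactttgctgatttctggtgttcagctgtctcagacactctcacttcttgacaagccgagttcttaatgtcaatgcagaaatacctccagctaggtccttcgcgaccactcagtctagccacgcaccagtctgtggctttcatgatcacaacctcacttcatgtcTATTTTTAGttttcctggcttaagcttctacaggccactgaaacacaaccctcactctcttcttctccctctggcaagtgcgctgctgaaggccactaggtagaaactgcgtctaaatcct
Rxrg (chr1:167618015-167618314, plus strand): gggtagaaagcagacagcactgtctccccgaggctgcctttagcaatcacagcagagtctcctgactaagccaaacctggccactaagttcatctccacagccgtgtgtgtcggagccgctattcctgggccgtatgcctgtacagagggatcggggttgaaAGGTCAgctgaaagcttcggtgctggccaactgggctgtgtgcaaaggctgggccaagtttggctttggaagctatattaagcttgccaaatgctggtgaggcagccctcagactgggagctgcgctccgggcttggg

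The motifs searched, on both strands, were AGATAA (for factors of the GATA family), CCAAT (bound by NF-Y), GGGCGG (Sp factors), TATAAA (bound by TBP), AGGTCA (core of nuclear receptor sites), CACGTG (E-box), AGAACA (core of glucocorticoid receptor sites), TGACTCA (AP-1), CTAAAAATA (MEF2) and CAAAGTCCA (HNF4). The Phka2 window held GGGCGG at 3 places and an AGAACA match. The Capn3 window held the MEF2 motif and the Rxrg window held AGGTCA. The Nxpe2 and Abca9 windows held none of the 10 motifs. These are matches of letters and not binding sites.

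Liver regions covered 300 of 300 bases of the Nxpe2 window and heart regions also covered 300. Over the Capn3 window, at a start of the gene for a muscle calpain protease, liver regions covered 300 bases and heart regions 237. For Rxrg, which encodes the nuclear receptor RXR gamma, the figures were 271 bases in liver and 164 in heart. For Abca9, a lipid transporter gene of the ABC family, they were 300 in liver and 87 in heart. For Phka2, the liver isoform of the regulatory alpha subunit of phosphorylase kinase, they were 147 in liver and 140 in heart. Over Fam124a, ranked just after Abca9, liver regions covered all 300 bases and heart regions 0, so there the member reached the start in liver only.

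In all, 57 members overlapped 65 promoter windows of 61 genes, 43 protein-coding and 18 for long non-coding RNAs (lncRNAs). The windows gave a strand for only 17273 of 21627 protein-coding genes (79.9%), none on chromosome 18. Starts of the other genes can be missed, so these counts are partial. The 61 genes do not include Snai2, although a member's liver region covered its whole span. The strongest promoter members by lower tag count lay over the lncRNA genes Gm36223 and Gm30458. The Gm36223 member had 125.3 tags in liver and 102.7 in heart, and the Gm30458 member 161 tags in liver and 61.2 in heart. Median G+C content of the 65 windows was 57.7%, against 52.7% over all 32851 windows and 61.0% over the 4278 windows overlapped by linked regions of all 4 organs. The observed over expected ratio of CpG was 0.499 in the 65 windows, 0.384 over all windows and 0.800 in the windows of all 4 organs. GGGCGG occurred in 31 of 65 windows (47.7%, 35.1 to 60.5%), beside 35.7% of all windows. AGATAA occurred in 6.15% beside 11.2%, AGGTCA in 18.5% beside 16.3%, the MEF2 motif in 1.54% beside 0.517% and the HNF4 motif in 1.54% beside 0.475%. AGAACA occurred in 9.23% beside 18.97%, TATAAA in 12.3% beside 13.6%, CCAAT in 33.8% beside 37.4%, CACGTG in 7.69% beside 7.15% and TGACTCA in 4.62% beside 5.20%. For each of the 10 motifs the share over all windows lay inside the interval of the 65 windows. Some of the 65 windows overlap one another, so they are not independent and the intervals are too narrow.

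The RefSeq table of mature microRNAs (miRNAs) placed 3 inside members, shown here with the seed, bases 2 to 8, in capitals. The 3 seeds differed. The member over the first lay in Hipk3, a kinase gene, with 6.98 tags in liver and 9.62 in heart, and the member over the other 2 lay in Cnot1, the scaffold of the CCR4-NOT deadenylase, with 26.9 tags in liver and 13.2 in heart.

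mmu-miR-1902: aGAGGUGCaguaggcaugacuu
mmu-miR-7073-3p: aUAGCCUUuuccuccccaacag
mmu-miR-7073-5p: uGGGGGAAuugaaagacuauga

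Members mostly rested on few tags in both organs. Liver tag counts ranged from 5.48 to 269 with a median of 11.7 (interval of the median 11.2 to 12.2), and heart counts from 6.58 to 327.9 with a median of 14.2 (13.7 to 14.7). In unscaled tags the median member rested on 23 tags in liver, with a Poisson interval of 14.6 to 34.5, and on 14 in heart, with an interval of 7.65 to 23.5. Median length was 781 bp in liver and 654 bp in heart. A single 500 bp window of the caller made up the liver region in 32.7% of members and the heart region in 41.1%. Among regions of all 4 organs under the same length limit these shares were 9.89% in liver and 13.8% in heart. From end to end the median member spanned 1341 bp, within the 1314 to 1611.5 bp of the other 5 pairs. The median was 736 bp over all linked regions under the limit and 500 bp over regions of 1 organ. By this median, members were longer than linked regions in general and of similar length to the other pairs.

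The caller's score of a region was often close to the threshold, in members and in the whole lists. The lowest score in each list equalled the tag threshold in its header, 14 in liver and 9 in heart, and the median member scored 15 in liver and 10 in heart. At most 1 above the threshold lay 50.8% of members in liver (48.6 to 53.0%) and 58.8% in heart (56.6 to 61.0%), beside 37.4% in liver and 39.99% in heart for regions of all 4 organs. In the whole liver list a score of 15.5 stood at the 49.4th percentile, so low liver scores did not set members apart from that list. In the whole heart list a score of 10 stood at the 42.0th percentile and a score of 11 at the 67.0th. In 29.6% of members both regions were at most 1 above the threshold. At the other end, 424 members (21.8%) had at least 15 tags in liver and in heart, and 46 (2.36%) had at least 50 in both.

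**Figure D1:**
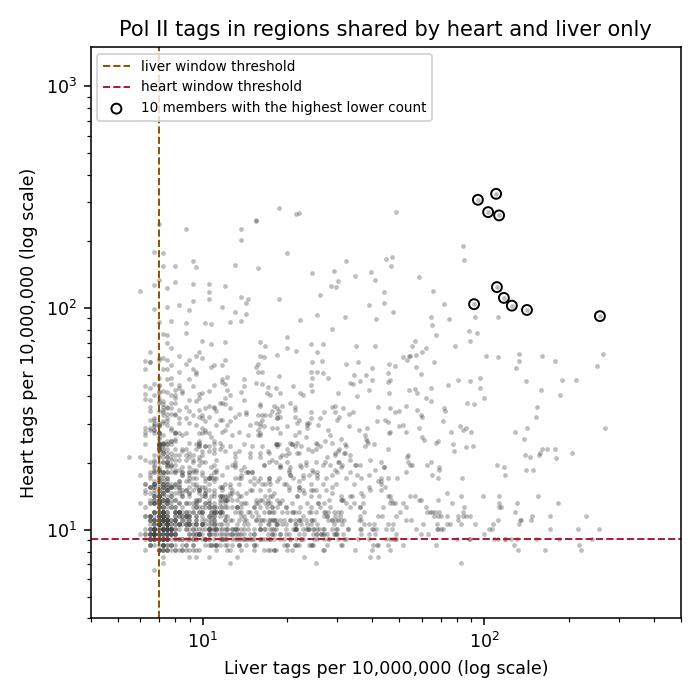
Each point is 1 of the 1949 regions called in liver and heart only, with its liver tag count on the horizontal axis and its heart tag count on the vertical axis, both per 10,000,000 tags on log scales. Dashed lines mark the tag threshold of each list on the same scale (6.98 in liver, 9.11 in heart), near which many points lie, and the 10 circled regions have the highest lower count of the pair.

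The overlap between the liver and the heart region was usually broad. In the 1817 members that joined 1 liver with 1 heart region, the overlap had a median of 88.4% of the shorter region (85.8 to 90.4%). It reached 50% of the shorter region in 77.5% of them and was 100 bp or less in 6.66%. The liver region was the longer in 48.4% and the heart region in 35.7%.

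Tag density, in tags per kb of region, was lower in liver than in heart. Its median was 14.8 in liver and 20.5 in heart, and the median of the liver over heart ratio was 0.726 (0.717 to 0.733). In the other 10833 linked regions with liver and heart it was 0.756, and the ratio of the header thresholds on the scaled tags, which follows the depth of the lists, was 0.766. How far the thresholds set the ratio was not tested. Liver density was at least 2 times heart density in 4 members (0.205%), beside 0.11% of all 12782 linked regions with liver and heart. It was at most 0.5 times heart density in 73 members (3.75%), beside 3.79%. Both shares were near those of all such regions. The rule did not use the ratio, but each call needed a window at the tag threshold. That threshold equals 13.96 tags per kb in liver and 18.2 in heart, but it was not a floor of the deposited densities. The lowest density in members was 10.3 in liver and 12.9 in heart, and the first quartile was 13.8 in liver and 18.4 in heart.

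The 10 strongest members reached 92 to 257.5 tags in liver and 92.1 to 327.9 in heart. Ranked by the lower count, the first was in Kcnk3, which encodes the potassium channel TASK-1, at chr5:30623962-30631726 (mm10), with 112.9 tags in liver and 262.1 in heart. Heart was the higher there. Next came a member in Nrp2, a receptor gene for semaphorins and VEGF-C, with 117.4 tags in liver and 111.3 in heart, close to equal. A further one lay 19371 bp downstream of Trim72, a membrane repair gene of striated muscle, with 110.9 tags in liver and 124.5 in heart.

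Sec24d, a cargo-binding subunit of the COPII coat that buds from the endoplasmic reticulum, held a member of 110.2 tags in liver and 327.9 in heart, the highest heart count of any member. The member in Adamts7, a secreted metalloprotease gene, had 103.2 tags in liver and 271.2 in heart. Dsc2, which encodes the desmosomal cadherin desmocollin 2, held the highest liver count of the 10, with 257.5 tags in liver and 92.1 in heart. That region, at chr18:20052481-20061371, lay 497088 bp from the nearest kidney or lung region. The last of the 10 inside a gene was in Corin, the protease that activates atrial natriuretic peptide, with 92 tags in liver and 104.3 in heart.

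Of the other 3 members of this rank, all between genes, 1 lay 47232 bp from Mn1, a transcription co-regulator gene, with 125.3 tags in liver and 102.7 in heart, and it is the region over the lncRNA Gm36223. Another lay 60251 bp from Clvs1, with 141.8 tags in liver and 98.2 in heart, and the last 18417 bp from Gatb, with 94.93 tags in liver and 308.2 in heart. Neither organ was the higher throughout: liver led at 4 of the 10 and heart at 6.

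By region score the leading members were others. The member of Cped1 scored 23.5 in liver and 18 in heart, at the 98.6th percentile of the liver list and the 99.2nd of the heart list, yet held 22.4 tags in liver and 23.8 in heart. Members in Rxrg, in Grb14, an adaptor that binds the insulin receptor, and in Pdzrn3, a ubiquitin ligase gene, also ranked here, as did members 27744 bp from Tnks and 74496 bp upstream of Eea1. In Grb14 the tag counts were 133.1 in liver and 57.7 in heart, and in Pdzrn3 51.4 in liver and 60.2 in heart.

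Among members with at least 15 tags in both lists, the liver over heart ratio of tag density ran from 0.341 to 2.36. The highest was 2.36 in Ptprm, a receptor tyrosine phosphatase gene, where the liver region had 180 tags over 4136 bp and the heart region 21.21 over 1151 bp. Next came a member over Ccdc33 and Stra6, the gene of a retinol transporter, with 36.4 tags per kb in liver and 18.2 in heart. The ratio was 1.89 at a member 72236 bp from Ppp1r3b, the glycogen-targeting subunit of protein phosphatase 1, and 1.86 in Ror1, a receptor gene for Wnt5a. Aspg, with a member 7676 bp upstream at 1.70, and Khdrbs3, at 1.62, completed this end.

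At the other end, the lowest ratio was 0.341 in Thrb, the gene of thyroid hormone receptor beta, with 25.4 tags over 2045 bp in liver and 18.2 over 500 bp in heart. It was 0.359 in Ralgapa2, 0.360 in the homeobox gene Cux2, 0.386 in Garem1, 0.393 in the junction scaffold gene Magi1 and 0.393 in Dysf, which encodes dysferlin, a membrane repair protein of muscle. In Dysf the counts were 21.97 tags in liver and 269.7 in heart, so the heart region was much the longer, 7620 bp against 1580 bp.

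The length limit cut into a few long regions. Without it 2010 linked regions were held by liver and heart only, and 61 of them (3.03%) were left out. Just inside the limit were members in Acacb, acetyl-CoA carboxylase 2, with a longest joined region of 9874 bp, near Pkp2, the desmosomal gene plakophilin 2 (9689 bp), and in Atrnl1 (9382 bp). The Acacb member held 6.98 tags in liver and 239.9 in heart, the one near Pkp2 13.71 in liver and 228.7 in heart, and the one in Atrnl1 185.2 in liver and 40.5 in heart. Just outside were regions in Sorbs2 (10000 bp, 159 tags in liver and 157.4 in heart), in 1190005I06Rik (10031 bp, 305.4 tags in liver and 159.5 in heart) and in Homer2 (10452 bp, 314.6 tags in liver and 240.9 in heart).

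Members lay mostly inside genes and away from gene ends. Of the 1949, 1442 overlapped the span of a protein-coding gene (74.0%, 72.0 to 75.9%), and the other 507 lay between genes. In the other 5 pairs of organs the share inside genes was 67.2 to 71.4%, over all linked regions under the length limit 66.7% and in regions of all 4 organs 87.0%. The interval of the members overlapped those of 4 of these 5 pairs and lay above that of heart with lung (66.0 to 68.4%). Within 1 kb of a gene end lay 8.93% of members (7.70 to 10.3%), beside 8.15 to 13.1% in the other pairs, 9.63% of all linked regions and 50.9% of regions of all 4 organs. Near gene ends the share of members was 20.7% when each list was reduced to the 50% of regions with the highest scores. An available promoter window of a protein-coding gene was overlapped by 2.15%, beside 2.54 to 4.799% in the other pairs. The share was 3.64% of all linked regions and 36.4% of regions of all 4 organs. Starts without a window were not counted.

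**Figure D2:**
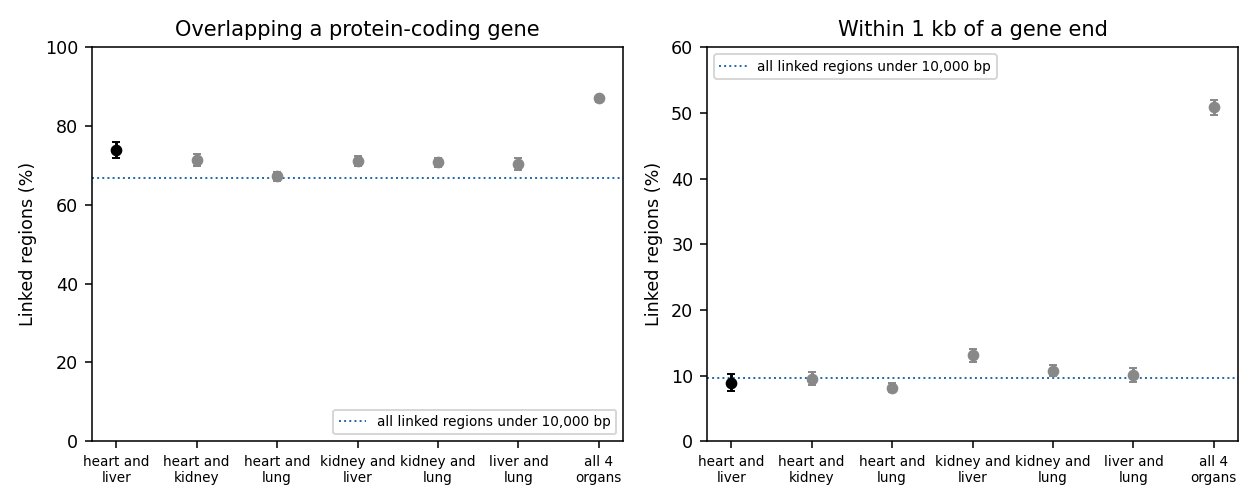
Share of linked regions overlapping a protein-coding gene (left) and lying within 1 kb of a gene end (right), in percent, for regions held by each pair of organs only and by all 4 organs. Points are shares and bars exact 95% binomial intervals. Regions of heart and liver (black) stand at 74.0% and 8.93%, near the 67.2 to 71.4% and 8.15 to 13.1% of the other pairs and below the 87.0% and 50.9% of regions held by all 4.

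Along genes of known strand, members were spread over the body. The strand was known for 17273 of 21627 genes (79.9%), none on chromosome 18, so the count is partial. The midpoints of members were placed in 5 equal parts of a gene from start to end, and a midpoint in overlapping genes counted in each. Of 1147 such placements, 16.7% lay in the first part, and then 21.7%, 20.5%, 21.1% and 20.1% in those that follow. The first part took 17.5 to 21.7% in the other pairs, 20.1% of all linked regions and 44.7% of regions of all 4 organs. On X lay 13 members (0.667%), beside 0.932 to 2.36% in the other pairs.

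Kidney and lung regions were usually not far away. The median distance from a member to the nearest kidney or lung region was 1608 bp. It was within 1 kb for 38.5% of members (36.3 to 40.7%), within 5 kb for 75.3% and within 20 kb for 91.3%. Each other pair, measured to the organs it lacked, had 23.0 to 33.2% within 1 kb, and none of their intervals reached that of the members. The lists differ in length, with 61956 regions in liver, 81887 in heart, 88200 in kidney and 101051 in lung, so the members were measured to the longest lists. The part of list length in these distances was not tested. Of a member's direct neighbours along the chromosome, 20.4% were liver-only regions, 17.8% heart-only and 7.41% further regions held by heart and liver only, here of any length. All linked regions hold 12.6%, 16.6% and 1.32% of these kinds. Regions of all 4 organs made up 11.6% of neighbours, beside 7.90% of all linked regions. Regions of heart, liver and lung made up 3.98% beside 1.21%, and those of heart, kidney and liver 3.41% beside 1.17%. Lung-only regions were less frequent, with 10.8% beside 20.7%, as were kidney-only regions, with 8.80% beside 18.1%.

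**Figure D3:**
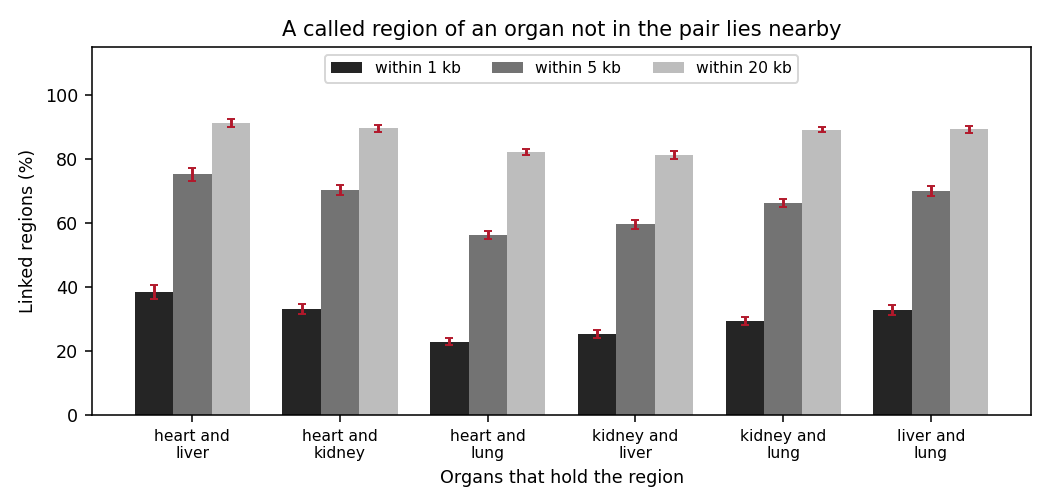
Share of linked regions, in percent, with a called region of an organ outside the pair within 1, 5 or 20 kb, for the 6 pairs of organs; bars on the columns are exact 95% binomial intervals. The columns of heart and liver reach 38.5%, 75.3% and 91.3%, the highest of the 6 pairs at each distance.

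The 1442 members inside genes fell in 995 protein-coding genes, 4.6% of 21627. Of these genes 752 held 1 member, and 101 held 3 or more, with 435 members between them. Long genes had more room: the median span was 64.4 kb in genes with a member against 17.3 kb over all genes, and the share of genes with a member was 0.543% up to 10 kb of span, 14.1% between 100 and 200 kb and 12.6% above 200 kb. Another member lay within 20 kb of 34.1% of members, beside 41.2 to 57.8% in the other pairs, which hold 3323 to 5899 regions each. Genes with a member were covered by called regions over a median 28.5% of the span in liver, 17.9% in heart, 14.0% in kidney and 12.6% in lung. Over all protein-coding genes the medians were 3.05% in liver, 2.48% in heart, 5.46% in kidney and 4.13% in lung. Over those above 20 kb they were 4.13% in liver, 3.14% in heart, 6.07% in kidney and 4.84% in lung. Genes with a member thus had the higher median coverage in kidney and lung as well. In the 101 genes with 3 or more members the medians were 33.4% in liver, 27.9% in heart, 12.2% in kidney and 9.24% in lung. Coverage in liver and heart includes the members themselves, so this order follows in part from the rule.

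Sorbs2, which encodes an actin-linked adaptor of Z-discs and cell junctions, held the most members, 15, in 320.119 kb of chromosome 8. Called regions of any length covered 41.5% of its span in liver, 43.9% in heart, 6.89% in kidney and 2.40% in lung. The counts of the 15 members ran from 7.48 to 84 tags with a median of 16.7 in liver, and from 8.1 to 190.3 with a median of 25.8 in heart. They lay from 94.7 to 285 kb after the annotated start. The largest, at chr8:45669532-45676475, had 84 tags in liver and 190.3 in heart.

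Cdh2, the gene of N-cadherin, which joins cardiomyocytes at the intercalated disc, held 10 members. It was covered to 64.6% in liver, 63.6% in heart, 0.285% in kidney and 0% in lung, so nearly all Pol II called over this gene was in liver and heart. Its members had 8.23 to 66.3 tags in liver (median 14.35) and 10.6 to 84 in heart (median 27.55), and the nearest kidney or lung region was 12624 to 106651 bp away. The members themselves covered 7.38% of it in liver and 7.17% in heart.

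Zbtb20, a zinc finger repressor of alpha-fetoprotein in liver, held 13 members, but it was not a gene of these organs alone. Regions covered 63.8% of it in liver, 47.5% in heart, 45.9% in kidney and 12.4% in lung, and its members lay 131 to 5269 bp from the nearest kidney or lung region. Their counts were 7.23 to 36.1 tags in liver and 8.6 to 47.1 in heart.

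Vwa8, a mitochondrial ATPase gene, held 10 members, with 6.98 to 100 tags in liver and 9.62 to 39.5 in heart, and was covered to 47.5% in liver, 18.5% in heart, 5.94% in kidney and 7.73% in lung. Atf6, the gene of a sensor of endoplasmic reticulum stress, held 9, with 6.73 to 129.6 tags in liver and 9.62 to 53.6 in heart. Its coverage was 34.9% in liver, 26.2% in heart, 7.69% in kidney and 9.31% in lung. Dpf3, a chromatin remodelling subunit that reads acetylated histones, held 8, with 7.73 to 111.9 tags in liver and 26.8 to 109.8 in heart. Dpf3 was covered to 6.44% in liver and 19.97% in heart, so most of its liver coverage, 5.28% of the span, was the members.

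**Figure D4:**
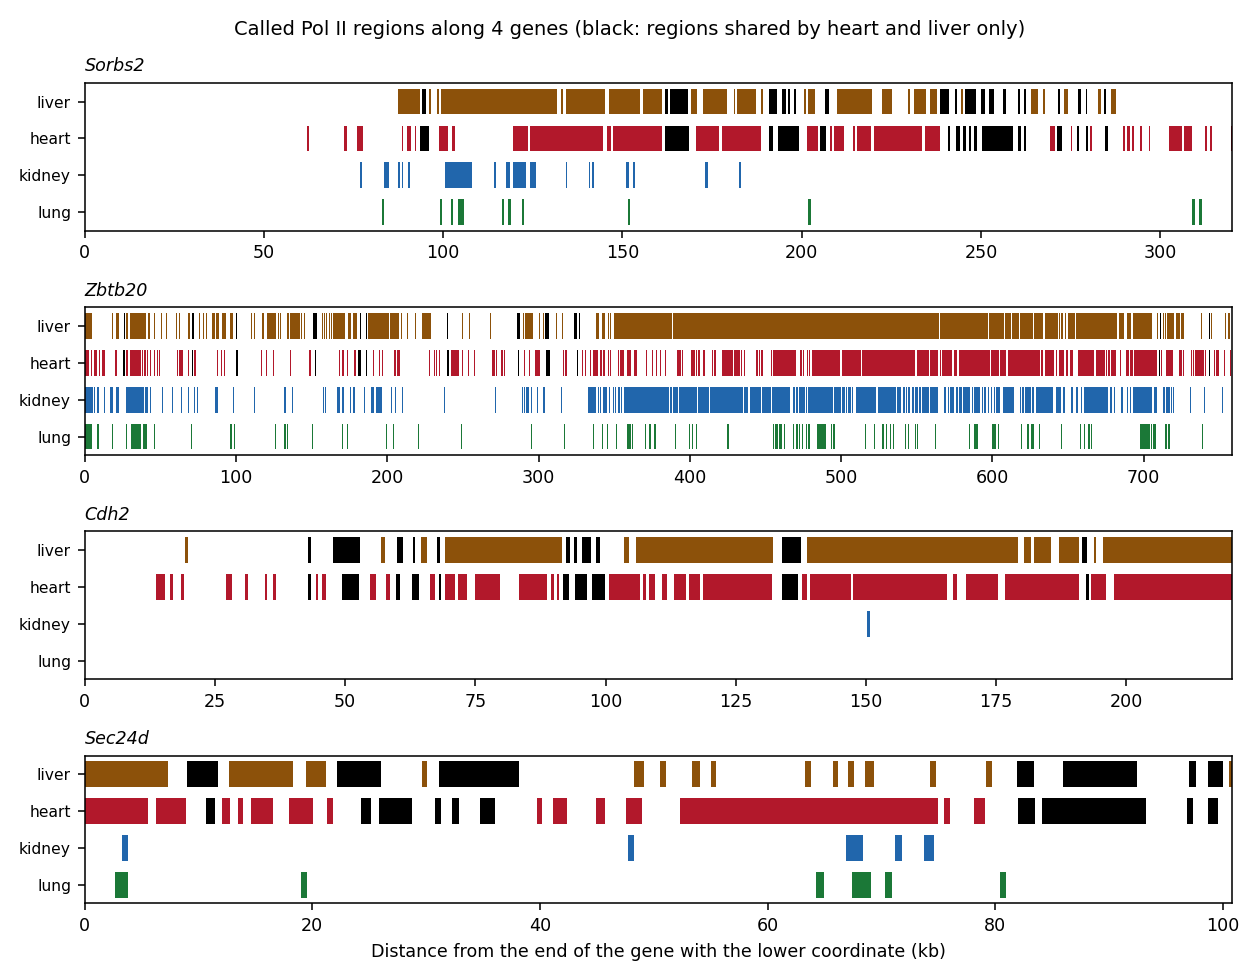
Called Pol II regions along Sorbs2, Zbtb20, Cdh2 and Sec24d in liver, heart, kidney and lung, with the distance in kb from the end of the gene with the lower coordinate. Black bars are the 15, 13, 10 and 7 regions shared by heart and liver only and coloured bars are all other called regions. Cdh2 is empty in lung, while kidney and lung regions run through Zbtb20.

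Sec24d held 7 members, which covered 23.3% of the span in liver and 18.8% in heart. All regions covered 44.4% in liver and 60.5% in heart. Kidney regions covered 3.97% and lung regions 5.04%. The counts of its members ran from 9.72 to 110.2 tags in liver and from 12.1 to 327.9 in heart.

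Sorbs2, Cdh2, Atf6 and Sec24d belong to a small set of genes covered to at least 25% in liver and heart and to less than 10% in kidney and lung, limits chosen after the values were seen. Over all protein-coding genes 47 met these limits (0.217%), and 16 of them held a member, which is 1.61% of the 995 genes with members and 34.0% of the 47. The rule favours such genes, so the overlap is no test. The other 12 were Tmem131l with 5 members, Smyd1, Wipf3 and Grb14 with 3 each, 1190005I06Rik, Nxpe2, Mn1, Arel1 and Fign with 2 each, and Snai2, Inf2 and Slc24a1 with 1.

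Smyd1, a methyltransferase gene of striated muscle, was covered to 37.9% in liver and 73.2% in heart, with 4.21% in kidney and 0% in lung. Its 3 members had 10.7, 11.5 and 12 tags in liver and 12.1, 68.8 and 126 in heart, so the heart counts were spread and the liver counts were all low. Grb14 was covered to 72.9% in liver and 28.0% in heart, and Arel1, a ubiquitin ligase gene, to 60.8% in liver and 48.4% in heart. Snai2, the gene of the transcriptional repressor Slug, was covered to 100% in liver and 30.2% in heart by 1 member of 152.6 tags in liver and 32.4 in heart, and to 0% in kidney and lung.

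**Figure D5:**
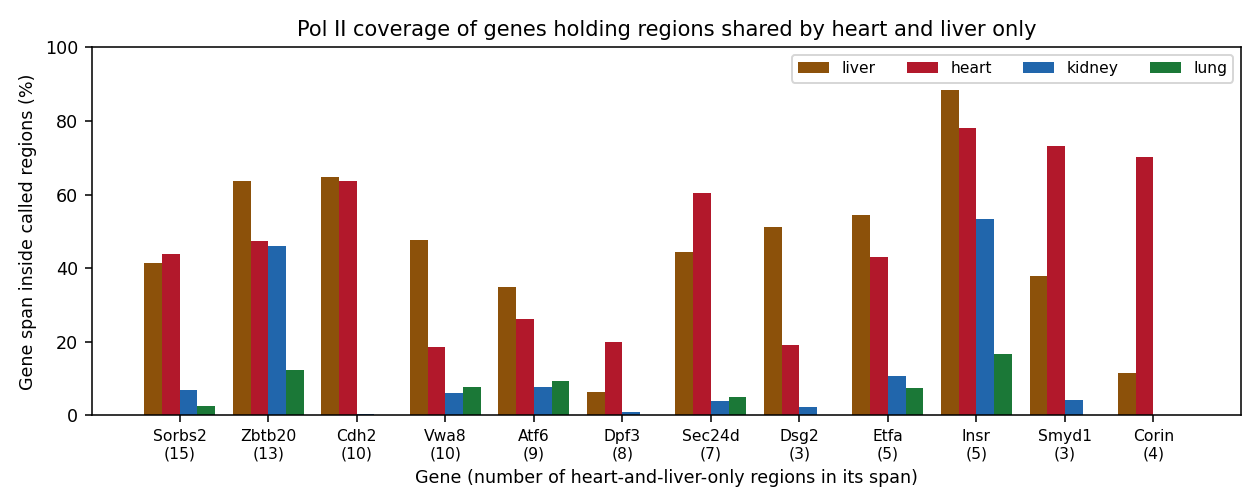
Percent of the gene span inside called regions in liver, heart, kidney and lung (bars, 1 list each) for the 6 genes with the most regions shared by heart and liver only and for 6 further genes named in the text, with that number under each name. Cdh2 stands at 64.6% in liver and 63.6% in heart with 0.285% in kidney, while Insr is covered to 53.2% in kidney as well.

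Over all lists together, the share of genes with a member was near that of all genes. Of 341 genes in 15 lists of pathways and cell type markers, 17 held a member (4.99%, 2.93 to 7.86%), beside the 4.6% of all protein-coding genes. Of 33 genes of fatty acid oxidation and PPAR targets 2 did (6.06%, 0.743 to 20.2%), Etfa and Ppargc1b, although 26 of the 33 were covered to at least 50% in liver and 22 in heart. In 17 of the 33 such coverage was also found in kidney and in 6 in lung.

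Etfa, the alpha subunit of the flavoprotein that passes electrons from fatty acid dehydrogenases, held 5 members, with 11 to 48.1 tags in liver and 22.3 to 46.6 in heart. It was covered to 54.3% in liver, 43.0% in heart, 10.6% in kidney and 7.37% in lung. Ppargc1b, a coactivator gene of mitochondrial biogenesis, held 1 member of 12 tags in liver and 45.5 in heart, but kidney regions covered 79.7% of that gene. Of 16 genes of ketone bodies and branched-chain amino acids 2 held a member (12.5%, 1.55 to 38.3%), an interval that also includes the share of all genes. Mccc2, of leucine breakdown, had 36.4 tags in liver and 11.1 in heart, and Hibadh, of valine breakdown, 9.72 in liver and 9.62 in heart.

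Glycogen and insulin signalling genes held members in 4 of 26 cases (15.4%, 4.36 to 34.9%), an interval that includes the share of all genes. Insr, the insulin receptor, held 5, with 17.2 to 57.3 tags in liver and 8.6 to 54.1 in heart, and was covered to 88.5% in liver, 78.1% in heart, 53.2% in kidney and 16.7% in lung. Phka2 held the member over the promoter window shown, with 72.3 tags in liver and 34.5 in heart, and regions covered 4.68% of the gene in liver, 4.46% in heart and 0% in kidney and lung. Gsk3b, glycogen synthase kinase 3 beta, held 1 weak member of 6.98 tags in liver and 16.7 in heart. It was covered to 60.4% in liver, 16.3% in heart, 37.3% in kidney and 31.0% in lung.

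Of 30 cardiomyocyte genes Corin held members, 4 in number, and of 30 hepatocyte genes Otc, the urea cycle enzyme ornithine transcarbamylase, held 1. Either way this is 1 gene of 30 (3.33%, 0.0844 to 17.2%), near the 4.6% of all genes. The Corin members had 7.23, 92, 84.43 and 7.98 tags in liver and 59.7, 104.3, 165.5 and 131.1 in heart. Regions covered 11.4% of this gene in liver, 70.3% in heart and 0% in kidney and lung. The Otc member had 6.98 tags in liver and 10.6 in heart, both close to the thresholds, and regions covered 34.4% of Otc in liver and 5.47% in heart.

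Among 30 transcription factor genes of heart and liver, Gata4 held 1 member, with 64.5 tags in liver and 91.6 in heart. GATA4 is a zinc finger factor of heart muscle and of liver cells. The gene was covered to 81.3% in liver, 96.8% in heart, 15.5% in kidney and 2.55% in lung. Zfpm1, which encodes the GATA cofactor FOG1, held 2, with 17.4 and 229.3 tags in liver and 16.2 and 11.6 in heart.

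Of 19 core clock genes, Rora held 6 members, with 7.73 to 183 tags in liver and 10.6 to 50.6 in heart, and Npas2 held 3, with 6.98 to 20.4 tags in liver and 10.6 to 17.2 in heart. Both encode activators of clock transcription. In the remaining lists, the glucocorticoid-induced gene Tsc22d3 had 1 member of 11 tags in liver and 18.2 in heart. The endothelial phosphatase gene Ptprb had 1 of 7.48 tags in liver and 9.11 in heart. Ptprb was covered to 11.7% in liver, 50.4% in heart, 11.0% in kidney and 39.7% in lung. Sdha, a subunit of succinate dehydrogenase listed as a housekeeping gene, had 2, of 25.4 and 20.2 tags in liver and 24.3 and 22.3 in heart. No gene held a member among 24 blood and macrophage, 16 erythroid, 20 fibroblast, stellate and smooth muscle, 20 kidney epithelial or 20 lung epithelial genes, and the upper limits of these shares were 14.2 to 20.6%.

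Cell junction genes were looked at after Cdh2, Sorbs2 and Dsc2 had been seen, so their count supports nothing. Of 20 such genes 5 held members: these 3, Dsg2 and Vcl. Dsg2, the desmosomal cadherin desmoglein 2, held 3 members, with 124.4, 8.48 and 57.1 tags in liver and 9.11, 41.5 and 61.7 in heart. It was covered to 51.0% in liver, 19.04% in heart, 2.16% in kidney and 0% in lung, and Dsc2 to 24.0% in liver, 13.7% in heart and 0% in both other organs. Vcl, the gene of vinculin, held 2 weak members and was covered to 75.2% in liver, 69.9% in heart, 46.7% in kidney and 67.1% in lung.

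Between genes, 102 of the 507 members (20.1%, 16.7 to 23.9%) overlapped an annotated lncRNA gene, beside 19.9 to 25.2% in the other pairs. Of the 507, 84 lay within 10 kb upstream of the nearest protein-coding gene and 84 within 10 kb downstream, each 16.6%. For 125 the strand of that gene was not given, so both shares are lower limits. No such count is given for the other pairs. The genes most often nearest were Pik3r1, the regulatory subunit of phosphoinositide 3-kinase, with 7 members, the sphingosine 1-phosphate receptor gene S1pr1 with 5, and Gata6, the lactate transporter gene Slc16a1 and the transcription factor gene Sp3 with 4 each. Pik3r1 itself was covered to 95.7% in liver, 98.6% in heart, 75.1% in kidney and 57.3% in lung. The strongest near Gata6, 29526 bp from the gene, had 88.2 tags in liver and 78.9 in heart.

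Heart and liver, the shortest lists, shared the fewest regions of any pair. The other 5 pairs held 3323 (liver with lung), 3549 (heart with kidney), 4584 (kidney with liver), 5276 (kidney with lung) and 5899 (heart with lung) linked regions under the same rule, and all 4 organs held 7481. When regions up to 5000 bp apart were also linked, 368 regions of heart and liver only were left, still fewer than in any other pair. This order was in part known when the pairs were chosen, the number depends on the length, depth and threshold of each list, and how far these set the order was not tested.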

How the data were processed

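Pol II ChIP-seq of liver, heart, kidney and lung was read as 1 deposited list of regions per organ. Bowtie2 2.2.8 and HOMER 4.8 with mm10 are the tools and build in the submitters' processing notes. The authors called regions by findPeaks with 500 bp windows joined into longer regions, a Poisson threshold and at most 1 tag per bp, per the file headers, and no input control stands in the recorded command. The deposited signal is a tag count scaled to 10000000 tags, and the deposited score comes from the caller, per the file headers. A deposited clonal fold ratio was not used in any result. Because the treatment of tags matching several places is not stated, genes with close copies are uncertain.

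Regions were linked, counted and set against RefSeq genes and promoter windows of GRCm38.p6 with Python 3.11.15, pandas 2.3.3, numpy 2.4.6 and scipy 1.17.1. A gene's covered percent is the part of its RefSeq span, with introns, that lies in called regions of any length. All 341 list genes matched the gene table, 2 of them through a synonym. With 1 list per organ no test was made. Shares carry exact (Clopper-Pearson) 95% binomial intervals and medians order-statistic intervals, which cover counting error only, and members in 1 gene are not independent. Linking and overlap code was tested on simulated regions, where 4 of 4 comparisons equalled brute force.

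The members and the gene lists were chosen with earlier results of these data known. Genes were named by fixed rankings: the 6 with most members, the 10 members with the highest lower tag count, the 6 with the highest lower score percentile, up to 3 genes per list, the 6 highest and 6 lowest density ratios with at least 15 tags in both, the 3 nearest the length limit on either side, and 6 promoter members. Other named genes were chosen after their values were seen. An item that the rankings hold is not reported here. Alternatives changed the overlap, the length limit, the gap joined, the windows and the part of each list used.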

Additional observations from a re-analysis of the deposited data

How the results depend on the processing

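Liver and heart shared fewer regions than any other pair under each of the 8 alternatives that changed the linking, the limit or the lists.

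The number of members was 831 with the 50% of each list with the highest tag counts, 1213 with the 50% with the highest scores, 1104 with regions up to 1000 bp apart linked and 368 with regions up to 5000 bp apart linked. The number of genes with a member was 474, 600 and 200 under the tag count, 1000 bp and 5000 bp settings. The percent inside genes was 76.7 with the highest scores, 76.3 with regions of at least 10 tags, 68.9 with 1000 bp and 58.2 with 5000 bp. The percent within 1 kb of a gene end was 13.7 with the highest tag counts, 20.7 with the highest scores, 11.7 with at least 10 tags and 16.8 with 5000 bp, and with windows of 500 and 2500 bp in place of 1 kb it was 6.88 and 15.1. The median ratio of liver over heart was 0.788 in density with 5000 bp and 0.797 for tag counts in place of density. The other 25 values of these main results stayed within their intervals or within 1.5 times. Of the values for the gene lists and the other pairs of organs, 61 moved further than 1.5 times, or to or from 0, and 114 did not. With the highest scores, 1 glycogen and insulin signalling gene held a member in place of 4, and 1 blood and macrophage gene in place of 0. With at least 10 tags, 4 fatty acid oxidation and PPAR target genes did in place of 2. For the 5000 bp setting fewer, isolated regions remain by construction; otherwise the cause was not tested.

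No paired analysis was possible because each organ has 1 list. Depth is a further limit: the median member rests on 23 tags in liver and 14 in heart, so a member can enter or leave through a few tags in any of the 4 lists.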
